A study of Mus musculus with 8 samples.

Results

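The 10 genes described here belong to the Notch pathway: the receptors Notch1, Notch2, Notch3 and Notch4, the ligands Jag1, Jag2 and Dll1, and the target genes Hes1, Hey1 and Hey2. They were taken as all probe sets of the array annotated with exactly 1 of these symbols, which gave 18 of 45037 probe sets (10 of the 18193 genes named on the array), 9 for receptors, 6 for ligands and 3 for targets. RNA came from palatal shelves, the outgrowths of the upper jaw that fuse to form the palate, at embryonic day 14.5. Of the 8 samples 4 are labelled R26Pax3/Pax3 (replicates 1, 3, 4 and 7), a genotype named for the transcription factor Pax3 and the Rosa26 locus, and 4 are wild type littermates (replicates 2, 6, 8 and 11), all from a cross of C57BL/6 with SV129. The labels name no Cre line and no cell type in which the allele acts. They also do not say whether a sample holds 1 embryo or several, so the p-values measure only the spread between these samples. The question put to the data is at what level the Notch genes were detected in wild type shelves and whether that level differed in R26Pax3/Pax3 shelves.

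Notch signalling passes between cells in contact. A Jagged or Delta ligand on one cell binds a Notch receptor on its neighbour, which is then cut by an ADAM protease and by gamma-secretase, and the freed intracellular part enters the nucleus and activates genes together with the DNA-binding protein RBPJ. The best known of these genes encode the Hes and Hey repressors. In the mouse palate the pathway is known from Jag2, whose loss leaves the oral epithelium adhesive, so that the shelves stick to the tongue and the palate stays cleft.

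Signals are MAS5 intensities on a linear scale. Differences are R26Pax3/Pax3 minus wild type on log2(signal + 16), with limma's standard error (SE) and 95% interval, and adjusted p-values are Benjamini-Hochberg values over 27021 probe sets. The median signal of the arrays lay between 43.5 and 44.9. A signal below it was treated as one that cannot be told from background, a working line drawn without detection calls. The genotype labels were checked on Pax3, whose brightest probe set read 532, 559, 664 and 722 in R26Pax3/Pax3 against 176, 142, 167 and 162 in wild type (difference 1.83, limma adjusted p = 1.70e-05), while 1 of its 3 probe sets, at 66 to 113 in R26Pax3/Pax3 against 82.1 to 111 in wild type, overlapped (-0.29), and on the Rosa26 transcript Gt(ROSA)26Sor, which read 12.8 to 30.3 in R26Pax3/Pax3 against 271 to 390 in wild type. Correlation between arrays was 0.974 to 0.982, and no 2 arrays held the same values. Of the 8 palate mesenchyme markers examined, none lay below the array median on all arrays. Neuronal markers had a higher log2 mean in R26Pax3/Pax3 on 8 of 8 (summed signal 801 to 1475, against 424 to 1511 in wild type). In wild type, replicates 2 and 11, both among the last 4 arrays deposited, summed to 424 and 445. Replicates 6 and 8 summed to 1511 and 896. Markers of 1 list share arrays and are not separate evidence. In R26Pax3/Pax3 the log2 mean was higher on 0 of 8 skeletal muscle markers (summed signal 499 to 3337, wild type 1429 to 3740). It was also higher on 0 of the 4 osteoblast markers with a probe set. In each of these lists 0 were called, and the part of these cells in the results was not tested. Because the shelves were measured in bulk, fewer cells of a type and less RNA per cell cannot be told apart.

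None of the Notch genes differed between genotypes past the threshold. Of the 18 probe sets, 14 passed the filter on low signals, covering 9 of the 10 genes, and 0 of these 14 were called at a limma adjusted p under 0.05, where 0.0148% of all tested probe sets were called. At an unadjusted p under 0.05 there was 1, the brightest probe set of Jag1, against 4.86% of all tested (2.43% higher and 2.44% lower). The adjusted p of each of the 14 was 1.00 by limma. The 2 genotypes overlapped on all 14. Of all tested probe sets 2.73% showed no overlap, a share so low that 0 of 14 does not set the Notch genes apart. The difference was above 0 on 8 and below 0 on 6, with a median of 0.02 and a range from -0.23 to 0.29. Over all tested probe sets the median was 0.00 and 50.3% were above 0. The intervals of all 14 lay between 0.625-fold and 1.62-fold on the scale with 16 added, a scale that understates changes of dim probe sets.

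**Figure D1:**
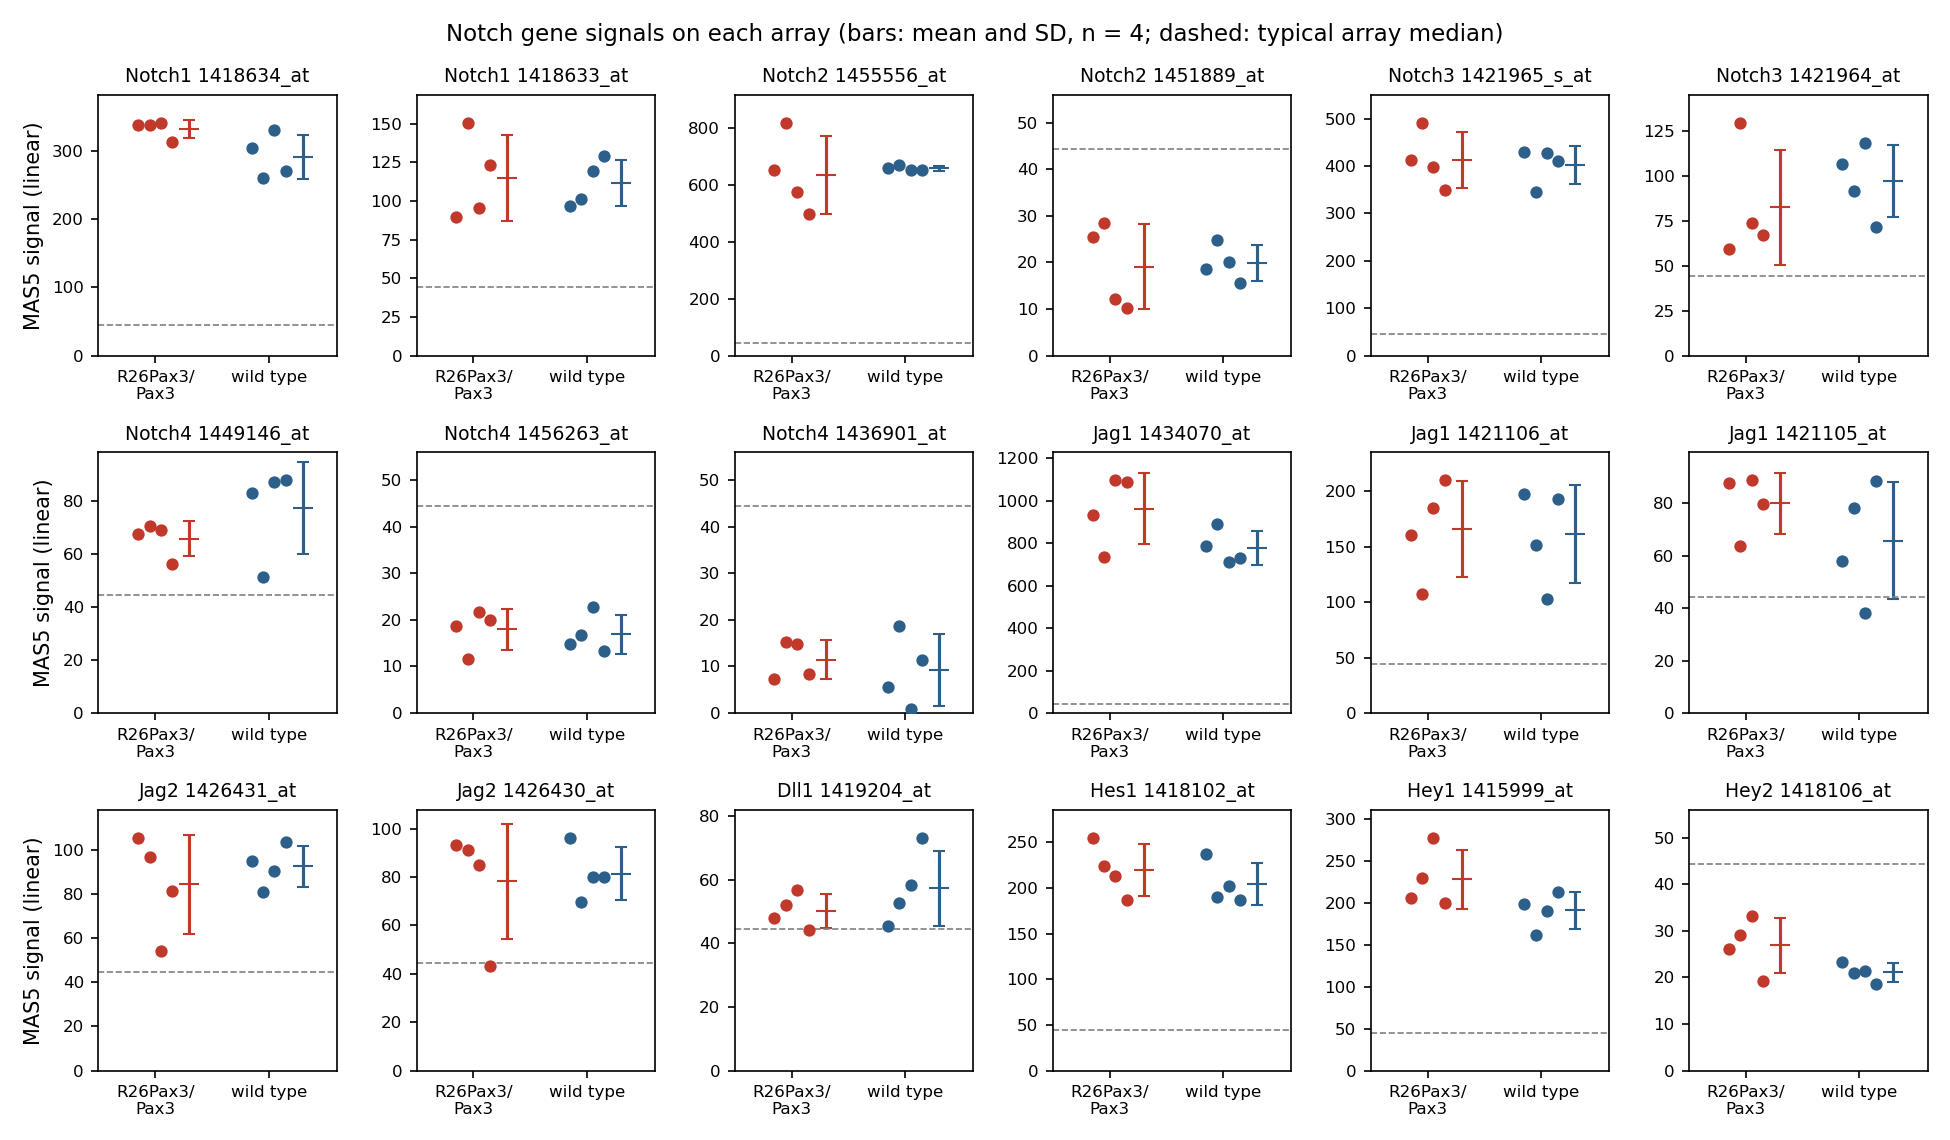
MAS5 signal (linear axis from 0) of the 18 Notch probe sets on each array, R26Pax3/Pax3 in red and wild type in blue, with mean and SD of 4 arrays and the typical array median as a dashed line. The genotypes overlap in every panel, and the second Notch2 panel, the last 2 Notch4 panels and the Hey2 panel lie wholly below the array median.

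Among the receptors, Notch1 is known in epithelia. Its brighter probe set, 1418634_at, read 338, 338, 341 and 313 in R26Pax3/Pax3 against 304, 261, 331 and 271 in wild type. The R26Pax3/Pax3 arrays lay close together and 3 of them exceeded every wild type array, but replicate 7 fell within the wild type range. The difference was 0.19 (SE 0.0950, 95% interval -0.02 to 0.39). The dimmer probe set, 1418633_at, read 89.7 to 150 in R26Pax3/Pax3 against 96.7 to 129 in wild type, a difference of 0.02 (95% interval -0.32 to 0.36). The 2 intervals overlapped, and whether the 2 probe sets differed was not tested.

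Notch2, a receptor of many mesenchymal tissues, read 654, 818, 574 and 498 on 1455556_at in R26Pax3/Pax3 against 661, 670, 653 and 651 in wild type. The wild type arrays were nearly equal, while the R26Pax3/Pax3 arrays lay on both sides of them, with replicate 3 highest and replicate 7 lowest. The means were 636 ± 137 for R26Pax3/Pax3 against 659 ± 8.40 for wild type (SD, n = 4 each), and the difference was -0.07 (SE 0.126, 95% interval -0.35 to 0.20). Whether the spread itself differed by genotype was not tested. The other probe set, 1451889_at, stayed between 10.3 and 28.4 on all arrays, below the array median, and says nothing on Notch2.

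Notch3 is the receptor of pericytes and vascular smooth muscle. On 1421965_s_at it read 412, 491, 398 and 350 in R26Pax3/Pax3 against 429, 344, 428 and 410 in wild type, with the groups intermixed and a difference of 0.03 (SE 0.112, 95% interval -0.22 to 0.27). The dimmer 1421964_at read 59.2 to 129 in R26Pax3/Pax3 against 71.4 to 118 in wild type, with a difference of -0.23 (SE 0.205, 95% interval -0.68 to 0.21), so the 2 probe sets lay on opposite sides of 0. Beside these, the summed signal of the 8 pericyte and smooth muscle markers was 2701 to 3424 in R26Pax3/Pax3 and 2537 to 3161 in wild type, and Myh11 was the 1 of them below the array median on all arrays. Of these 8, 4 had a higher and 4 a lower log2 mean in R26Pax3/Pax3. The widest apart was Tagln, an actin-binding protein of smooth muscle, which read 303 ± 44.2 in R26Pax3/Pax3 against 162 ± 47.0 in wild type (SD, n = 4 each) without overlap, but was not called (limma adjusted p = 0.368). The part of these cells in the Notch3 values was not tested.

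Notch4, the receptor of endothelial cells, was read by 1 of its 3 probe sets. On 1449146_at it read 67.5, 70.4, 68.9 and 56.0 in R26Pax3/Pax3 against 82.9, 51.4, 86.9 and 87.6 in wild type. In wild type 3 arrays exceeded every R26Pax3/Pax3 array, and replicate 6 lay below all of them. The difference was -0.17 (SE 0.157, 95% interval -0.51 to 0.17). The 10 endothelial markers include Pecam1, Cdh5, Kdr and Tek, and none was below the array median on all arrays. They summed to 1794 to 2099 in R26Pax3/Pax3 against 1761 to 1910 in wild type. Of these 10, 7 had a higher log2 mean in R26Pax3/Pax3, and 0 were called. The part of endothelial cells in the Notch4 values was not tested. The other 2 Notch4 probe sets together read 7.3 to 21.8 in R26Pax3/Pax3 and 0.9 to 22.8 in wild type and cannot be told from background.

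The ligand Jag1 gave the largest difference among the 14 tested probe sets. On 1434070_at it read 930, 736, 1095 and 1089 in R26Pax3/Pax3 against 784, 889, 709 and 730 in wild type. In R26Pax3/Pax3 3 arrays exceeded every wild type array, and replicate 3 lay below 2 of the wild type arrays. The means were 963 ± 169 for R26Pax3/Pax3 against 778 ± 80.4 for wild type (SD, n = 4 each), with a difference of 0.29 (SE 0.125, 95% interval 0.02 to 0.56) and an unadjusted limma p of 0.0390, which did not pass the adjustment over all probe sets.

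The 2 dimmer Jag1 probe sets gave less. On 1421105_at Jag1 read 87.8, 63.7, 88.8 and 79.8 in R26Pax3/Pax3 against 57.9, 78.4, 38.3 and 88.6 in wild type, a difference of 0.27 (SE 0.195), which was 0.08 without wild type replicate 8. On 1421106_at it read 161, 108, 185 and 210 in R26Pax3/Pax3 against 198, 151, 103 and 193 in wild type, a difference of 0.04 (SE 0.212, 95% interval -0.42 to 0.50). Replicate 3 was the lowest R26Pax3/Pax3 array on each of the 3. The 11 epithelial markers summed to 6241 to 8787 in R26Pax3/Pax3 against 5811 to 7286 in wild type. Of these 11, 8 had a higher log2 mean in R26Pax3/Pax3. At an unadjusted limma p under 0.05 there were 2 (4.86% of all tested), and 0 were called. The widest apart was Krt17, at 476 to 667 in R26Pax3/Pax3 against 157 to 354 in wild type without overlap (limma adjusted p = 0.462). On the epithelial sum replicate 3 was again the lowest of its genotype. But wild type replicate 6, with the lowest epithelial sum of all, had the highest wild type reading of Jag1 on 1434070_at. The part of epithelium in the Jag1 values was not tested.

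Jag2, the ligand of oral epithelium, showed no common direction among arrays. On 1426431_at it read 105, 96.8, 54.3 and 81.2 in R26Pax3/Pax3 against 95, 81.0, 90.4 and 103 in wild type, a difference of -0.14 (SE 0.166, 95% interval -0.50 to 0.23). On 1426430_at the values were 93.4, 91.4, 84.9 and 43.2 in R26Pax3/Pax3 against 96.2, 69.5, 80.2 and 79.9 in wild type, a difference of -0.08 (SE 0.191, 95% interval -0.50 to 0.33). The low R26Pax3/Pax3 array was replicate 4 on the first and replicate 7 on the second, so the 2 probe sets differed in which array was low. Dll1, a Delta ligand, lay near the array median on its single probe set, at 47.9, 52.2, 56.7 and 44.1 in R26Pax3/Pax3 against 45.4, 52.7, 58.3 and 73.2 in wild type, with a difference of -0.14 (SE 0.147, 95% interval -0.46 to 0.18). In R26Pax3/Pax3 3 of 4 and in wild type 4 of 4 arrays exceeded their own median.

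**Figure D2:**
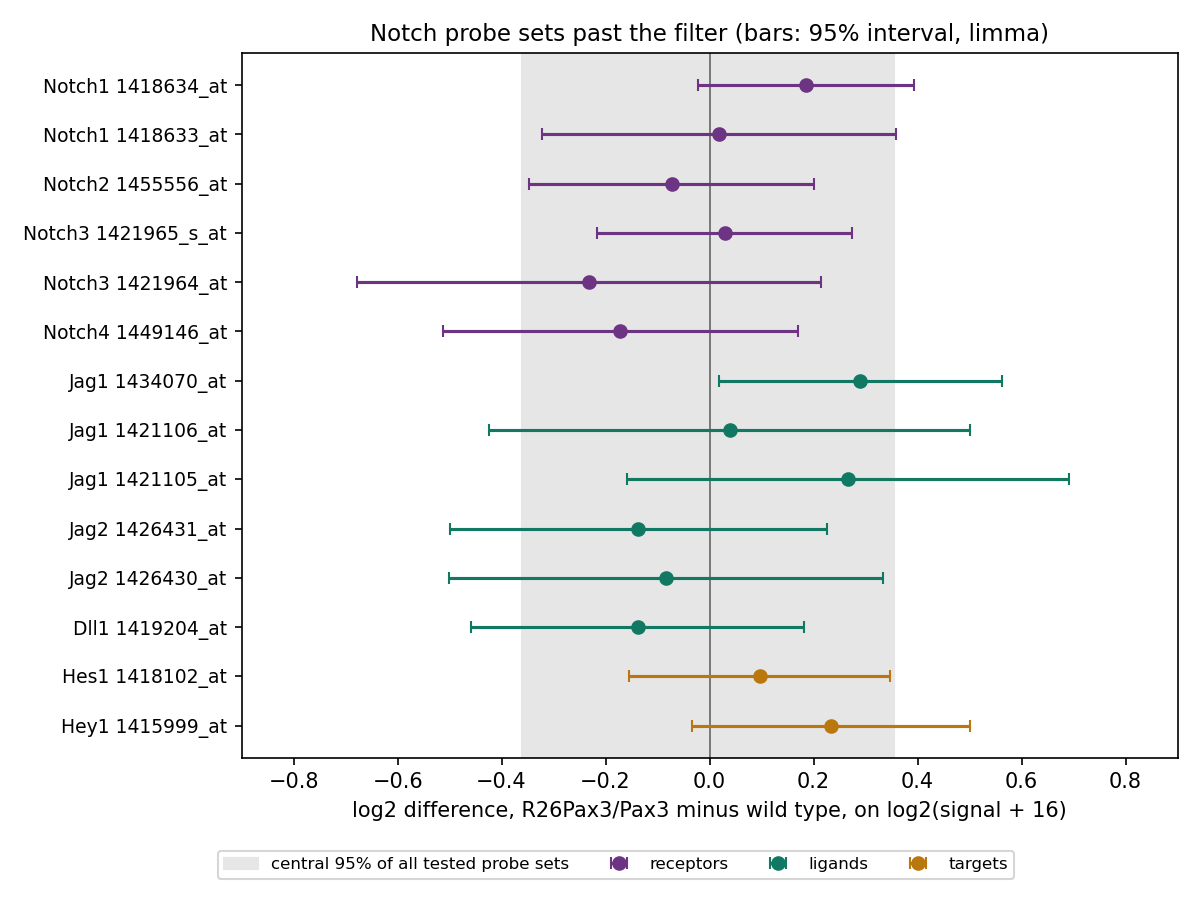
Difference between R26Pax3/Pax3 and wild type on log2(signal + 16) with limma's 95% interval for the 14 Notch probe sets past the filter, coloured by role, over the central 95% of all 27021 tested probe sets in grey. Only the interval of Jag1 1434070_at leaves out 0, and every point lies inside the grey band of -0.36 to 0.35.

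Of the target genes, Hes1, a repressor widely used as a readout of Notch activity, read 255, 224, 213 and 187 in R26Pax3/Pax3 against 237, 190, 202 and 187 in wild type. The groups were intermixed, and the difference was 0.10 (SE 0.115, 95% interval -0.15 to 0.35). Hey1, a repressor that acts in blood vessels and in mesenchyme, read 206, 230, 278 and 200 in R26Pax3/Pax3 against 200, 162, 190 and 214 in wild type. Only R26Pax3/Pax3 replicates 3 and 4 exceeded all wild type arrays, and the difference was 0.23 (SE 0.123, 95% interval -0.03 to 0.50). Hey2, known from arteries and heart, read 26.1, 29.2, 33.2 and 19.2 in R26Pax3/Pax3 against 23.4, 21.0, 21.4 and 18.6 in wild type. All 8 values lay below the array medians and are given without a fold.

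Stretches that match the known RBPJ motif are shown for Hey2 and further Hes genes, since that motif is how the pathway reaches its targets. The search used the RBPJ core motif TGGGAA, on both strands, in windows from 250 bases before to 50 bases after the gene's start from RefSeq (assembly GRCm38.p6). Such a window was at hand for 8 of the 10 genes, without Hes1 and Hey1, and of these 8 only Hey2 held the core, at 2 places. Of 7 further genes listed with the targets 4 had a window, and Hes5 and Hes7 held the core. Whether Notch drives each gene of that list was not tested. Among all 32851 windows 25.6% held the core and 6.38% the longer form GTGGGAA, which contains it and which every stretch below carries. They are printed 5′ to 3′ on the gene's own strand, with the core or its reverse complement in capitals.
Hey2, first capital 207 bases before the start (chr10:30842973-30843002, minus strand): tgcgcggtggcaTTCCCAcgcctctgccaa
Hey2, first capital 3 bases before the start (chr10:30842769-30842798, minus strand): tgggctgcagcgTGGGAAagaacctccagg
Hes5, first capital 226 bases before the start (chr4:154960685-154960714, plus strand): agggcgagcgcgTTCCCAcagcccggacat
Hes5, first capital 82 bases before the start (chr4:154960829-154960858, plus strand): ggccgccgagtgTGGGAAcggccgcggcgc
Hes7, first capital 180 bases before the start (chr11:69120261-69120290, plus strand): tcctcccctcacTTCCCAcatttggggcta
A match describes these letters and is no measured binding. All 3 genes that hold it were dim in the shelves. Hes5, a target of neural progenitors, read 27.3, 15.2, 9.7 and 9.5 on its brighter probe set in R26Pax3/Pax3 against 2.1, 3.8, 3.2 and 6.4 in wild type, without overlap but wholly below the array medians, so that no fold is given. Its other probe set read 1.4 to 13.9 in R26Pax3/Pax3 against 1.5 to 13.1 in wild type. Hes7, known from the segmentation clock, read 3.8 to 12.4 in R26Pax3/Pax3 against 3.9 to 10.4 in wild type.

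The other genes of the pathway were read from 6 lists with 56 genes, of which 50 had a probe set of their own and 44 passed the filter on at least 1. Their 87 tested probe sets had a median difference of 0.01, with 45 above and 42 below 0. Among these 87 are probe sets of Dll4, Heyl and Kdm5a that passed the filter but lay below the array median on all arrays. None was called at a limma adjusted p under 0.05, 5 had an unadjusted p under 0.05 (4.86% of all tested did), and on 3 the genotypes did not overlap (2.73% of all tested).

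Enzymes that add sugars to Notch receptors held the 2 lowest values. Gxylt2, a xylosyltransferase acting on Notch, read 277, 239, 245 and 310 on its only probe set in R26Pax3/Pax3 against 466, 430, 376 and 513 in wild type. All R26Pax3/Pax3 arrays lay below all wild type arrays, and the difference was -0.70 (SE 0.115, limma adjusted p = 0.137). Its relative Gxylt1 had -0.06, with an interval of -0.25 to 0.13. Lfng, a fringe enzyme that shifts receptors from Jagged towards Delta ligands, read 52.7, 77.7, 42.6 and 47.2 in R26Pax3/Pax3 against 102, 64.6, 63.7 and 93.5 in wild type (difference -0.45, SE 0.184, limma adjusted p = 0.995). The fucosyltransferase Pofut1 had -0.13 on its brightest probe set and 0.03 and 0.07 on the others, and the glucosyltransferase Poglut1 had 0.20. Of the 14 tested probe sets of these enzymes, 8 were above and 6 below 0.

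The genes listed as further targets and ligands lay on both sides of 0. Nrarp, a target that feeds back on the Notch complex, read 246, 271, 298 and 251 on 1417985_at in R26Pax3/Pax3 against 238, 224, 184 and 206 in wild type. The genotypes did not overlap, with a difference of 0.30 (SE 0.105, limma adjusted p = 0.968), while its dimmer probe set overlapped (0.15, SE 0.139). Hes6, which opposes Hes1, had means of 241 ± 41.3 in R26Pax3/Pax3 against 295 ± 22.3 in wild type on its brighter probe set (SD, n = 4 each). The difference there was -0.29 (limma adjusted p = 1.00), and it was -0.17 on the dimmer Hes6 probe set. Heyl had 0.02 on its brightest probe set. Dlk1, a membrane protein related to the Delta ligands, read 3480, 2901, 2702 and 2406 in R26Pax3/Pax3 against 4451, 3180, 3135 and 4242 in wild type (difference -0.38, SE 0.136, limma adjusted p = 0.968). The genotypes overlapped because R26Pax3/Pax3 replicate 1 exceeded wild type replicates 6 and 8. On the dimmer Dlk1 probe set the difference was -0.19 (SE 0.191). The endothelial ligand Dll4 lay near the array median on its brighter probe set, at 35.2 to 46.6 in R26Pax3/Pax3 against 22.5 to 55.7 in wild type (difference -0.02, above the median on 3 of 8 arrays), and below it on all arrays on the other. The Delta-like gene Dlk2 had -0.15 and 0.01 on its 2 probe sets.

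The core machinery had small differences. In the protease list, which includes the gamma-secretase subunits Ncstn and Aph1a, 16 tested probe sets ran from -0.19 to 0.19. Ncstn had -0.19 and 0.19 on its 2 probe sets. The metalloprotease Adam17 had -0.15, 0.05 and 0.14 on its 3, and Adam10 lay between -0.02 and 0.08. For RBPJ itself, the 3 probe sets of Rbpj had 0.13, -0.12 and 0.06, of which the brightest read 722 ± 34.1 in R26Pax3/Pax3 against 662 ± 65.6 in wild type (SD, n = 4 each). Snw1, a coactivator of the complex, had 0.23 on 1429003_at and, without overlap between genotypes, 0.09 on 1429002_at (536 ± 5.91 in R26Pax3/Pax3 against 504 ± 8.42 in wild type, SD, n = 4 each). Its dimmest, 1459026_at, had -0.02 and exceeded the array median on 2 of 8 arrays. Kdm5a, a histone demethylase that silences Notch targets, had 0.26 on the probe set with its smallest p and 0.08 on its brightest. Its tested probe sets ran from -0.15 to 0.26. The corepressor Tle3 had 0.07 on its brightest probe set and -0.17, -0.15 and -0.09 on its other tested ones. Among ubiquitin ligases and endocytic genes, 20 tested probe sets ran from -0.21 for Dtx3 to 0.24 for Neurl1b, with Neurl1a at -0.13 and Itch at -0.08.

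**Figure D3:**
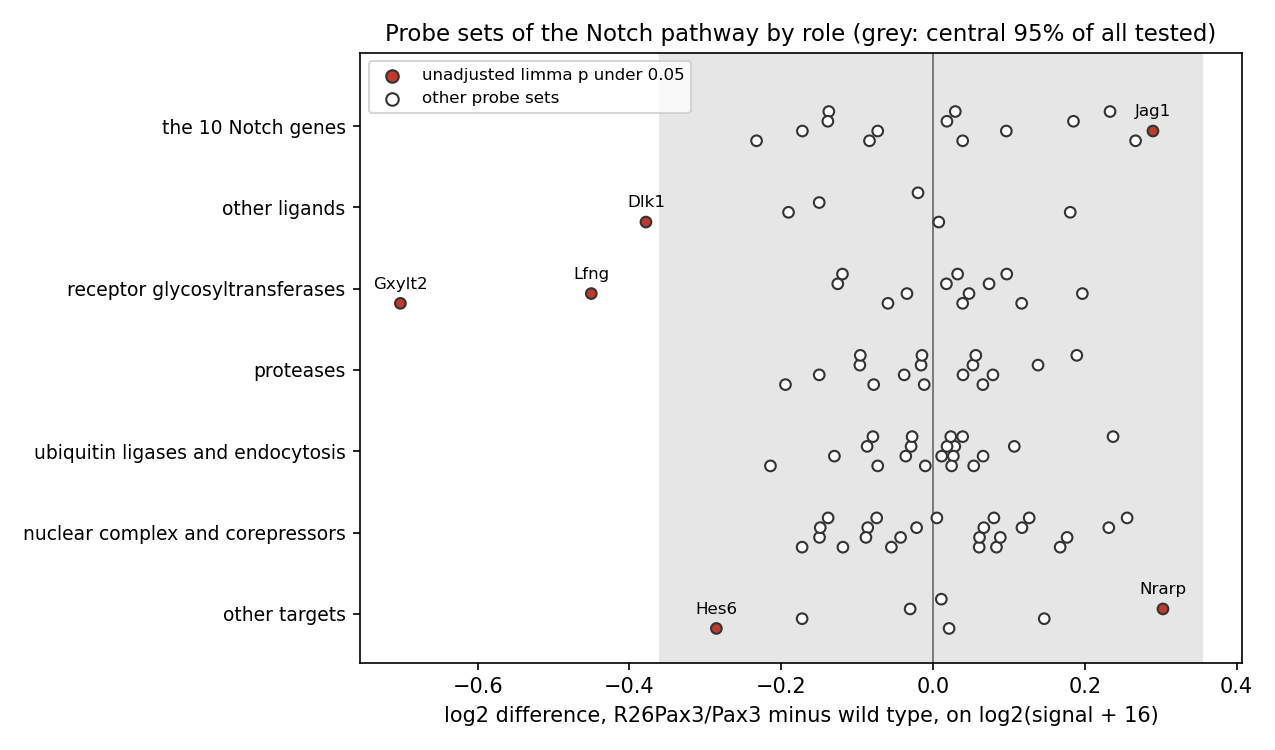
Difference between R26Pax3/Pax3 and wild type on log2(signal + 16) for the 14 tested probe sets of the 10 Notch genes and the 87 of other pathway genes, in rows by role, with the central 95% of all tested probe sets in grey and probe sets with an unadjusted limma p under 0.05 filled in red. Gxylt2 at -0.70, Lfng at -0.45 and Dlk1 at -0.38 lie left of the grey band, and Jag1, Nrarp and Hes6 lie within it.

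The first 4 and the last 4 arrays deposited each held 2 of both genotypes. On 7 of the 14 tested Notch probe sets the genotype difference had opposite signs within these sets, as it had on 56.3% of all tested. Whether the genotype difference itself changed between the sets was not tested. For Jag1 on 1434070_at it came to 0.06 among the first 4 arrays and 0.52 among the last 4, for Jag2 on 1426431_at 0.20 and -0.48, and for Notch2 on 1455556_at 0.14 and -0.29. Notch1 on 1418634_at had 0.19 and 0.18, and Hey1 had 0.29 and 0.18. Among the other pathway genes Lfng had 0.00 and -0.90 and Dlk1 0.01 and -0.77, while Gxylt2 had -0.61 and -0.79 and Nrarp 0.32 and 0.29. Compared with each other in 1 fit with genotype, the last 4 and first 4 arrays differed on 0 of the 14 Notch probe sets at a limma adjusted p under 0.05 (0.148% of all tested) and on 1 at an unadjusted p under 0.05 (8.83% of all tested), Jag1 on 1421106_at, which was 0.55 higher in the last 4 (SE 0.142, limma adjusted p = 0.255).

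Among the Notch genes, no pair passed the adjustment for a relation across arrays. After the mean of each genotype was subtracted, the brightest probe sets of Notch3 and Jag1 had r = -0.89 and rho = -0.76 over the 8 arrays (exact permutation within genotypes, two-sided, p = 0.0139 for r and 0.0556 for rho, adjusted p = 0.219 and 0.50 over 36 pairs), and r = -0.77 without the 2 arrays farthest from the median of Notch3. In wild type this order was not kept, since replicate 2 had the most Notch3 signal and the second highest Jag1 signal. Notch3 and Notch4 had r = 0.78 and rho = 0.71 (exact permutation p = 0.0208 for r and 0.0417 for rho, adjusted p = 0.219 and 0.50), and r = 0.93 without the 2 farthest arrays. Of the 36 pairs among 9 genes, 4 had an unadjusted p under 0.05 for r. The pairs share genes and arrays, and pairs of other genes were not counted for comparison. The first 4 and last 4 arrays hold 2 of each genotype, too few for a value within each. R26Pax3/Pax3 replicate 7 and wild type replicate 6 were lowest of their genotype on the brightest probe sets of 4 of the 9 genes. These were Notch1, Notch3, Notch4 and Hey1. On the dimmer probe sets other arrays were lowest, replicates 1 and 2 for Notch1 and replicates 1 and 11 for Notch3. How many of all tested probe sets were lowest in R26Pax3/Pax3 replicate 7 and wild type replicate 6 was not counted. The same 2 arrays had the lowest summed signal of their genotype for the 8 pericyte and smooth muscle markers, at 2701 and 2537, and for the 8 skeletal muscle markers, 499 in a range up to 3337 among R26Pax3/Pax3 arrays and 1429 in a range up to 3740 among wild type arrays. The part of these cells in the values was not tested. The median SD within genotypes was 0.22 on the log2 scale for the 14 Notch probe sets and 0.19 for all tested.

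**Figure D4:**
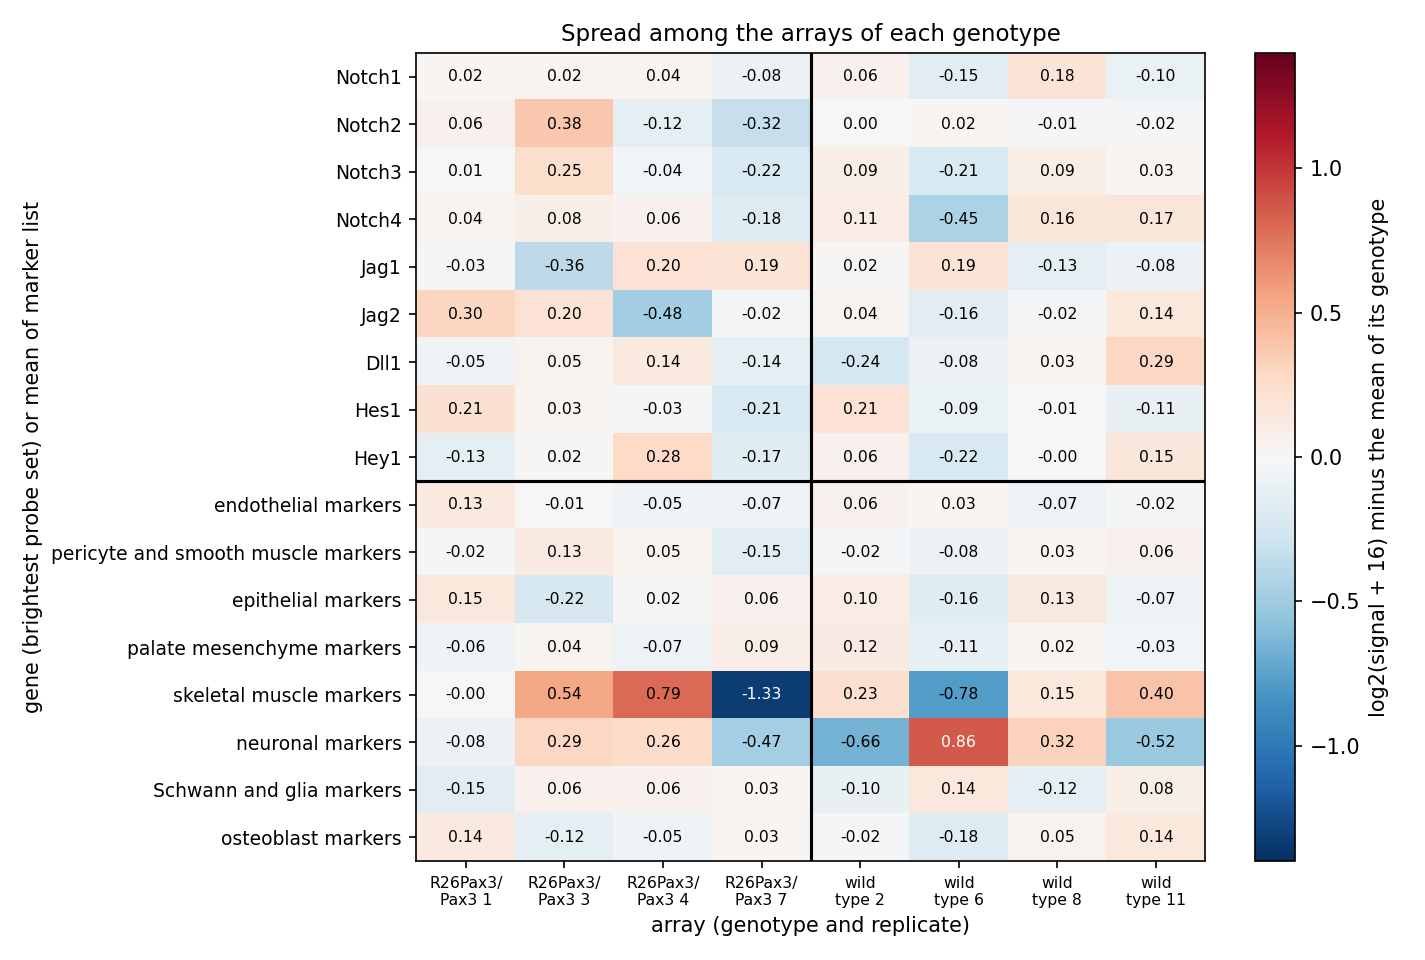
Deviation of each array from the mean of its genotype on log2(signal + 16), for the brightest probe set of 9 Notch genes (upper rows) and for the mean of each marker list (lower rows), with R26Pax3/Pax3 arrays on the left and wild type on the right. Notch1, Notch3, Notch4 and Hey1 are lowest in R26Pax3/Pax3 replicate 7 and wild type replicate 6, the columns in which skeletal muscle markers and pericyte and smooth muscle markers are lowest too, and Jag1 is above its mean in both.

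By likeness of pattern over the 8 arrays, again with each genotype's mean subtracted, the genes closest to Jag1 among 22778 probe sets were Igbp1 (r = 0.99), Pet100 (r = 0.98) and Sec22a (r = 0.97). Those closest to Hey1 were Vwa1 (r = 0.98), Oip5os1 (r = 0.97) and Mbd4 (r = 0.97). Those closest to Notch3 were Enah (r = 0.99), Zfp511 (r = 0.99) and Ctnnd1 (r = 0.99). No other of the 10 genes was among the 3 nearest of any. These are the highest of many correlations over 8 arrays that share hybridisation and scaling, and they are given as a description.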

How the data were processed

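Palatal shelf RNA of 8 samples was read on a mouse Affymetrix array. The deposited numbers are intensities on a linear scale, 1 for each probe set. The submitters' processing notes name MAS5, without a version. The mean of every array was 150 once its lowest and highest 2% were set aside, so a change shared by most genes would go unseen.

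Platform annotation gave 34945 probe sets a single symbol, 932 several and 9160 none, besides 64 controls. All 10 Entrez identifiers were found in the RefSeq table. After log2(signal + 16), only probe sets with a mean signal above the 40th percentile were tested, 27021 in number. The test was limma 3.58.1 under R 4.3.3 (lmFit, then eBayes with an intensity trend, no covariates), checked on simulated data. The number of arrays limits the precision. Genotypes came from the titles.

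Members and lists were chosen with earlier results of these data known. Named pathway genes are up to 4 per list by smallest p, and similar patterns are the 3 highest Pearson r. Tagln, Krt17, Gxylt1, Hes5, Hes7 and Myh11 were named after their values were seen. Alternatives changed the pseudocount, filter, scaling, variance model, block by deposition, and each array in turn. Listed genes that no single-symbol probe set named are not analysed here.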

Additional observations from a re-analysis of the deposited data

Results flagged for a closer look

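Among 36 groups of 4 arrays examined, 3 held an array far from the other 3 by Dixon's test, which chance gives for about 1 in 20 groups. On Notch1 1418634_at, R26Pax3/Pax3 replicate 7 read 313.1 where the others read 338 to 341. On Jag2 1426430_at the same array read 43.2 where the others read 84.9 to 93.4. On Notch4 1449146_at, wild type replicate 6 read 51.4 where the others read 82.9 to 87.6. Without that array the difference of Notch4 was -0.32.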

How the results depend on the processing

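Under all 17 alternatives 0 probe sets of the 10 genes and 0 of the other pathway genes were called by limma, with 0 to 2 and 2 to 8 at an unadjusted p under 0.05. Over the array 4 were called, and 4 to 9 when single arrays were left out, with 9 without R26Pax3/Pax3 replicate 3. The 9 alternatives other than leaving out an array turned no direction on the 14 tested probe sets, although a filter at the 60th percentile left only 11 of them. Sizes did shrink by over 1.5 times with a pseudocount of 64. They came to 0.16 for Jag1 1421105_at, -0.08 for Dll1 and -0.15 for Notch3 1421964_at. For Jag2 they came to -0.09 on 1426431_at and -0.05 on 1426430_at. Leaving out 1 array turned the sign on 6 of the 14. The values then ran from -0.11 to 0.11 for Notch1 1418633_at, -0.199 to 0.0341 for Notch2 1455556_at, -0.0543 to 0.102 for Notch3 1421965_s_at, -0.14 to 0.21 for Jag1 1421106_at, -0.238 to 0.0241 for Jag2 1426431_at and -0.17 to 0.13 for Jag2 1426430_at. Fewer arrays were fitted in each. Without a change of sign, values also moved by over 1.5 times, to -0.44 without R26Pax3/Pax3 replicate 3, -0.35 without wild type replicate 11, -0.12 without R26Pax3/Pax3 replicate 1 and -0.14 without wild type replicate 8 for Notch3 1421964_at, to 0.08 without wild type replicate 8 for Jag1 1421105_at, to 0.14 without R26Pax3/Pax3 replicate 4 for Hey1, to -0.22 without wild type replicate 2 and -0.04 without wild type replicate 11 for Dll1. For Hes1 they ran from 0.03 without R26Pax3/Pax3 replicate 1 to 0.17 without R26Pax3/Pax3 replicate 7 or wild type replicate 2, with 0.06 without wild type replicate 11, and for Notch4 from -0.32 without wild type replicate 6 to -0.11 without R26Pax3/Pax3 replicate 7 or wild type replicate 11. Jag1 1434070_at stayed between 0.22 and 0.41, with 0.41 reached without R26Pax3/Pax3 replicate 3 (limma adjusted p = 0.643, range over alternatives 0.643 to 1.00). Probe sets dimmer than the array median were taken to give no measure of change. No paired analysis was possible because the genotypes share no replicate number.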
